A study of Mus musculus with 12 samples.

Results

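Hox genes encode homeodomain transcription factors, and in the mouse they lie in 4 clusters, Hoxa on chromosome 6, Hoxb on chromosome 11, Hoxc on chromosome 15 and Hoxd on chromosome 2. Genes are numbered by paralogue group from the 3′ end of a cluster to its 5′ end. Low numbers are active towards the head and high numbers towards the tail and the limb ends, so that the set of active Hox genes in a cell records where its lineage arose, and adult fibroblasts and other mesenchymal cells keep much of that set. In the developing lung, genes of the low and middle groups of Hoxa and Hoxb are active in the mesenchyme, and Hoxa5 is required for normal lung and airway formation in the mouse. HOX proteins bind DNA together with PBX, MEIS and PKNOX partners, their clusters are held silent by Polycomb complexes and kept active by Trithorax complexes, and retinoic acid switches on their 3′ genes in the embryo.

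The members are all genes of the deposited table whose mouse symbol is Hoxa, Hoxb, Hoxc or Hoxd followed by a number. There were 36 of them among 19212 genes: 11 of Hoxa, 10 of Hoxb, 6 of Hoxc and 9 of Hoxd. RefSeq lists 39 such genes, and Hoxc11, Hoxc12 and Hoxc13 were not analysed here. A group mean of at least 1 CPM, the count scaled to the library total, in any group was reached by 23 members. The other 13 had at most 17 counts, or 0.991 CPM, in any library. Hoxb7 and Hoxc4, at 1.12 and 1.28 CPM in their highest groups, lay just above that limit, and Hoxa13 and Hoxc5, at 0.904 and 0.621 CPM, lay just under it.

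RNA came from 12 mouse lung cancer samples in 4 groups of 3. All came from mice given LLC cells, the Lewis lung carcinoma line of a mouse lung tumour, and orthotopic models, with tumour cells in the lung, are stated for the knockdown experiment. OTUB1_KD tumours came from cells given an OTUB1 knockdown lentivirus in culture, and NC tumours from cells given the negative control lentivirus. SFD@M tumours came from mice treated with SFD@M and Blank tumours from mice given physiological saline, both with the genotype WT, which the labels also give for NC. Strain, age and sex of the hosts, dose, time, the hairpin and the number of animals behind a library are not stated, and the p-values therefore speak of the spread among these libraries alone, which may be technical. The knockdown and saline experiments share no libraries, so a comparison of Blank with NC or of SFD@M with OTUB1_KD crosses them.

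Libraries held 16062806 to 18028828 counts. Markers of lung, vessel and blood cells set the groups apart: the summed level of 6 alveolar markers was 10343 to 25601 CPM in OTUB1_KD against 15.3 to 18.7 CPM in NC, and 22985 to 25360 CPM in SFD@M against 11.0 to 11.7 CPM in Blank. Sums of 6 endothelial markers were 999.9 to 2465 CPM in OTUB1_KD against 4.99 to 5.51 CPM in NC, and 2496 to 3404 CPM in SFD@M against 2.04 to 2.67 CPM in Blank. Sums of 6 leukocyte markers were 589.9 to 723 CPM in OTUB1_KD against 0.533 to 1.37 CPM in NC, and 496 to 603 CPM in SFD@M against 0.35 to 0.58 CPM in Blank. Sums of 4 airway markers were 12251 to 31530.03 CPM in OTUB1_KD against 0.415 to 0.891 CPM in NC, and 34254 to 37229.97 CPM in SFD@M against 0.638 to 0.6996 CPM in Blank. Cd3e had 0 counts in NC and Blank, as did Cldn5 and Scgb3a2, while Cdh5 and Lamp3 had 0 counts in NC and Cd52 and Sftpa1 in Blank. NC and Blank are labelled as lung cancer tissue, yet their sums of airway and leukocyte markers were at most 1.37 CPM. Their sums of alveolar and endothelial markers were low but not 0, at up to 18.7 and 5.51 CPM. A list of 9 fibroblast and mural markers was high as a sum everywhere. Its sums were 3649 to 5339 CPM in OTUB1_KD, 2273 to 2380 CPM in NC, 1889.6 to 2610.5 CPM in SFD@M and 2754 to 2835 CPM in Blank. Its members were not alike, as 7 rose and 1 fell in OTUB1_KD (median log2 fold change 2.83, against 0.16 over all genes tested). In SFD@M 7 rose and 2 fell (4.19, against 0.23). Over all genes tested, 39.9% rose and 25.8% fell in OTUB1_KD, and 49.5% rose and 38.7% fell in SFD@M. Sums of 4 Y-linked genes were 127, 0.636 and 24.5 CPM in OTUB1_KD replicates 1, 2 and 3 against 340.5 to 348 CPM in NC, and 0.177 to 1.64 CPM in SFD@M against 368 to 375 CPM in Blank. Otub1, the knockdown target, had 58.6, 49.3 and 71.2 CPM in OTUB1_KD against 76.2, 73.9 and 69.8 CPM in NC, which overlapped, and did not pass the test (log2 fold change −0.36 ± 0.18 SE, quasi-likelihood adjusted p = 0.112). In SFD@M it had 47.3, 45.5 and 48.1 CPM against 78.0, 73.3 and 73.5 CPM in Blank and fell (−0.71 ± 0.05, quasi-likelihood adjusted p = 5.8e-06). In bulk RNA, fewer cells of a type and less RNA per cell cannot be told apart, and the part of these markers in the Hox values was not tested. Replicate counts varied by 102 to 169.6 times the counting variance within OTUB1_KD and 17.8 to 33.5 times within SFD@M, but by 1.4 to 2.06 times within NC and 1.33 to 1.58 times within Blank.

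The start regions of 4 members are shown because Hoxb4 and Hoxa5 stood for the genes that were high in OTUB1_KD and SFD@M, and Hoxa9 and Hoxd8 for those that were high in NC and Blank. Each line gives the 250 bases before the annotated start of transcription on the gene's own strand, from RefSeq on build GRCm38.p6, with CG dinucleotides, the sites that DNA methylation acts on, in capitals. Hoxb4 is at chr11:96318017-96318266 on the plus strand, Hoxa5 at chr6:52204588-52204837 on the minus strand, Hoxa9 at chr6:52227371-52227620 on the minus strand and Hoxd8 at chr2:74704365-74704614 on the plus strand.
Hoxb4: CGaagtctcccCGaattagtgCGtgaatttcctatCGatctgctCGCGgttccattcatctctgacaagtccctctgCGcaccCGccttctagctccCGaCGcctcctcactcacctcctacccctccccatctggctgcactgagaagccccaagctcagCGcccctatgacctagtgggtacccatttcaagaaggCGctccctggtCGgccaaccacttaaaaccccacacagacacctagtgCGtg
Hoxa5: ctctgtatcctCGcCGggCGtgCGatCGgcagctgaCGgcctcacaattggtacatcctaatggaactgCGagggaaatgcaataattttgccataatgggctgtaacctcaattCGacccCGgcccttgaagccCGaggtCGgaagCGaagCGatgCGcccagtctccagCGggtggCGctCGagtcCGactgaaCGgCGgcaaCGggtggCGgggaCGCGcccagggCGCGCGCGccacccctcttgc
Hoxa9: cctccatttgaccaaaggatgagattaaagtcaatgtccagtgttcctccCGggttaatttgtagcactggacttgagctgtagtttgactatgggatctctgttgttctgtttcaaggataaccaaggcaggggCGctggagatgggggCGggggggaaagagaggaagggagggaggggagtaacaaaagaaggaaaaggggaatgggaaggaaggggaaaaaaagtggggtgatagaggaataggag
Hoxd8: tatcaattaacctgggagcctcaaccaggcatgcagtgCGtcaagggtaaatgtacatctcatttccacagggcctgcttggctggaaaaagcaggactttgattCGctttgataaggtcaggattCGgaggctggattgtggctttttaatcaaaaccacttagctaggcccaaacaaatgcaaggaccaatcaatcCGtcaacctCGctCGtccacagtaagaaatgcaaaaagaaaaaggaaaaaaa
The Hoxb4 stretch held 14 CG and that of Hoxa5 28, against 3 for Hoxa9 and 6 for Hoxd8, where the median of 32851 promoters was 6. CG counts did not separate the classes: among members high in NC and Blank, Hoxd10 had 20, Hoxa6 24, Hoxd9 13 and the starts of Hoxa10 7 and 20, while Hoxa2, high in OTUB1_KD and SFD@M, had 6. CCAAT, searched on both strands, was found at Hoxa5 and Hoxd8, and in 33.8% of all promoters. TATAAA was found at none of these 4 and in 12.4% of all promoters, and TGATTNAT, a form of the site that HOX and PBX proteins share, at none of the 4 and in 2.8% of all. Promoters were found for 22 Hox genes, 15 of them among the 23 members above 1 CPM, and their CG counts ranged from 2 at a start of Hoxd11 to 28 at Hoxa5 among those 15. The counts describe these letters only.

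NC and Blank libraries carried a code of middle and 5′ genes of Hoxa and Hoxd, led by Hoxd8, with almost no Hoxb. SFD@M libraries carried a code of 3′ and middle genes of Hoxa and Hoxb with little Hoxd. OTUB1_KD replicates 1 and 3 held both, and replicate 2 resembled SFD@M. Summed over the members in TPM, a level scaled to the library and corrected for length, the clusters came to 127.2, 88.96 and 88.85 TPM in OTUB1_KD replicates 1, 2 and 3 and to 247.5 to 249.4 TPM in NC. SFD@M libraries had 88.1 to 108.3 TPM and Blank libraries 286.3 to 293.6 TPM. The ranges did not overlap between either treated group and its control, and the sum in NC and Blank was higher.

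**Figure D1:**
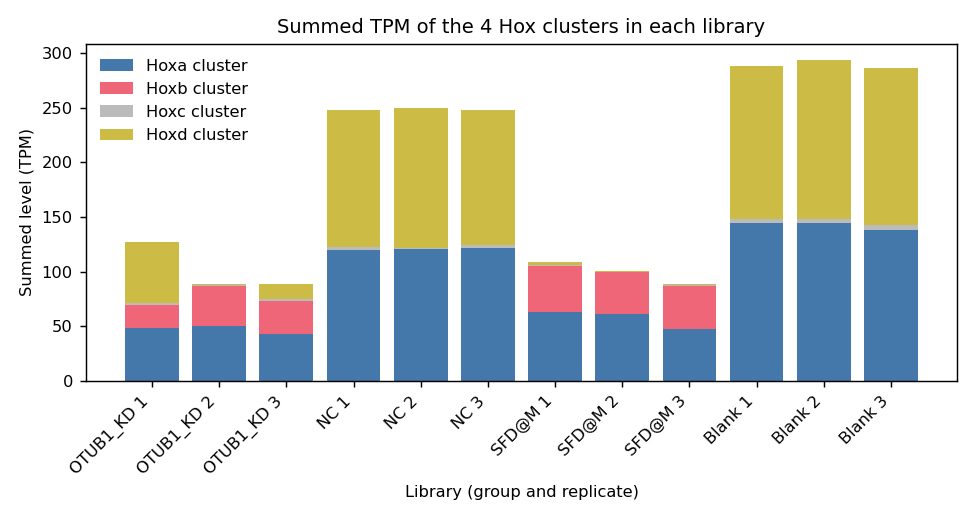
Bars give the summed TPM of the Hoxa, Hoxb, Hoxc and Hoxd genes in each of the 12 libraries. Hoxb is seen in OTUB1_KD and SFD@M bars, Hoxd fills about as much as Hoxa in NC and Blank, and OTUB1_KD replicate 1 holds a large Hoxd part that replicate 2 lacks.

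Each cluster kept its own pattern. Hoxb genes made up 30.8 ± 12.7% of Hox TPM in OTUB1_KD (SD, n = 3 here and below) against 0.0282 ± 0.0283% in NC, and 40.7 ± 3.47% in SFD@M against 0% in Blank. Hoxd genes made up 20.5 ± 21.6% in OTUB1_KD, with a range of 1.5% to 43.95%, against 50.5 ± 0.67% in NC, and 1.17 ± 0.54% in SFD@M against 49.4 ± 0.78% in Blank. The share of Hoxa was more alike, at 47.6 ± 9.27% in OTUB1_KD and 48.6 ± 0.40% in NC, and at 57.5 ± 3.31% in SFD@M and 49.1 ± 0.83% in Blank. As a sum Hoxa was lower in both, at 47.2 ± 4.07 TPM in OTUB1_KD against 120.6 ± 0.96 TPM in NC. SFD@M had 57.15 ± 8.48 TPM of Hoxa against 142.2 ± 3.40 TPM in Blank. Hoxc stayed small in every group, with its highest mean share, 1.51%, in Blank.

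Position within a cluster divided the groups as sharply. Genes of paralogue groups 9 to 13 made up 12.0 ± 12.9% of Hox TPM in OTUB1_KD against 54.4 ± 0.54% in NC, and 0.435 ± 0.223% in SFD@M against 51.0 ± 0.92% in Blank. Groups 1 to 3 made up 27.6 ± 9.42% in OTUB1_KD against 6.37 ± 0.21% in NC, and 32.1 ± 2.24% in SFD@M against 6.76 ± 0.49% in Blank. The middle groups 4 to 8 were the largest class in OTUB1_KD (60.4 ± 5.42% against 39.2 ± 0.75% in NC) and in SFD@M (67.5 ± 2.18% against 42.2 ± 0.75% in Blank). Their summed TPM was lower all the same, at 60.7 ± 7.69 in OTUB1_KD against 97.3 ± 1.49 in NC. In SFD@M it was 67.0 ± 8.52 against 122.2 ± 2.43 in Blank. Groups 1 to 3 were higher as a sum too, at 27.0 ± 5.89 against 15.8 ± 0.58 TPM and 31.7 ± 1.95 against 19.6 ± 1.17 TPM. At 1 TPM or more in the group mean stood 19 of 36 genes in OTUB1_KD against 15 in NC, and 12 in SFD@M against 14 in Blank.

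By TPM the leading genes differed too. In Blank they were Hoxd8 at 74.5 ± 4.19, Hoxa10 at 53.7 ± 1.37, Hoxa9 at 38.8 ± 2.64 and Hoxd10 at 30.6 ± 1.98 TPM. NC had the same order, with 70.6 ± 1.20, 48.3 ± 1.02, 37.7 ± 0.21 and 31.4 ± 1.05 TPM, and within each group no neighbours in this order overlapped. SFD@M libraries were led by Hoxa5 at 34.7 ± 6.80 TPM, followed by Hoxb5 at 10.7 ± 1.51 and Hoxb2 at 10.1 ± 0.39, which overlapped each other, then by Hoxb4 at 7.72 ± 0.67 and Hoxa3 at 7.31 ± 1.05, which also overlapped. OTUB1_KD was led by Hoxa5 at 20.2 ± 6.36 TPM, with Hoxd8 next in the mean at 11.8 ± 15.3, a value spread over 0.77 to 29.3 TPM.

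**Figure D2:**
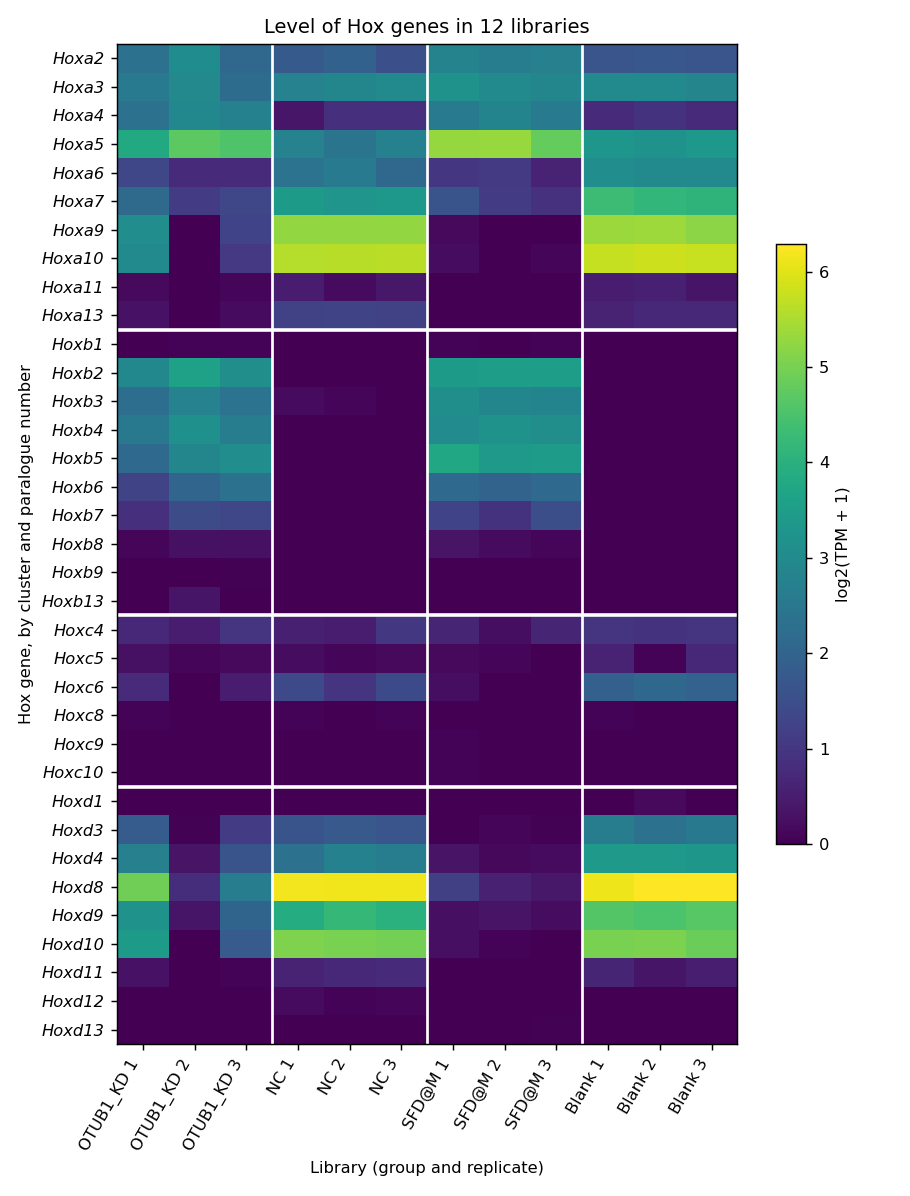
Rows are Hox genes in cluster order, columns are libraries, and colour gives log2(TPM + 1). Hoxb2 to Hoxb7 are lit in OTUB1_KD and SFD@M and dark in NC and Blank, Hoxa9, Hoxa10, Hoxd8, Hoxd9 and Hoxd10 the reverse, and OTUB1_KD replicates 1 and 3 show both blocks.

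The Hoxb cluster had 0 counts in Blank and, apart from 6 counts of Hoxb3, in NC. Hoxb2 and Hoxb4 to Hoxb9, and also Hoxb1 and Hoxb13, had 0 counts in all NC and Blank libraries, where the 3 counts over a group that a count of 0 allows correspond to 0.0585 CPM. Such limits, and the intervals below, cover counting error only. Hoxb4, which in the mouse is studied for its part in blood stem cells, had 8.18, 14.7 and 9.15 CPM in OTUB1_KD and 13.03, 14.6 and 13.7 CPM in SFD@M. All 6 libraries were thus far above both controls, and Hoxb4 was at least 176-fold higher in OTUB1_KD than in NC (quasi-likelihood adjusted p = 0.000272) and at least 237-fold higher in SFD@M than in Blank (quasi-likelihood adjusted p = 1.63e-06).

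Hoxb2, a hindbrain patterning gene, had 5.95, 11.2 and 7.43 CPM in OTUB1_KD and 9.45, 9.89 and 10.2 CPM in SFD@M. It was at least 136-fold higher in OTUB1_KD than in NC (quasi-likelihood adjusted p = 0.000348) and at least 169-fold higher in SFD@M than in Blank (2.84e-06). Hoxb5, known in the mouse lung as a mesenchymal gene of branching airways, had 4.12, 8.32 and 9.1 CPM in OTUB1_KD and 15.97, 11.6 and 12.8 CPM in SFD@M. Every SFD@M value of Hoxb5 exceeded every OTUB1_KD value. Hoxb5 was at least 119-fold higher in OTUB1_KD than in NC (quasi-likelihood adjusted p = 0.000619) and at least 232-fold higher in SFD@M than in Blank (4.31e-06).

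Hoxb3 had 8.75, 14.5 and 9.37 CPM in OTUB1_KD against 0.249, 0.119 and 0 CPM in NC, which are 4, 2 and 0 counts. It was the only Hoxb gene with a count in a control. Its summed level in OTUB1_KD was 89.8 times that in NC (95% counting interval 41.0 to 246; quasi-likelihood adjusted p = 0.000247). In SFD@M it had 18.7, 14.2 and 14.4 CPM against 0 counts in Blank, at least 271-fold higher (quasi-likelihood adjusted p = 3.14e-06).

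By TPM, Hoxb5 stood at 5.78 ± 2.08 in OTUB1_KD and 10.7 ± 1.51 in SFD@M, Hoxb6 at 2.89 ± 1.33 and 3.30 ± 0.23, and Hoxb7 at 1.33 ± 0.48 and 1.38 ± 0.48. Hoxb2, Hoxb3 and Hoxb4 did not continue that order, with 10.1 ± 0.39, 6.78 ± 0.93 and 7.72 ± 0.67 in SFD@M. Hoxb6 had 1.2, 2.89 and 3.55 CPM in OTUB1_KD and 3.11, 2.59 and 3.06 CPM in SFD@M. Hoxb7 had 0.572, 1.45 and 1.16 CPM in OTUB1_KD and 1.12, 0.706 and 1.53 CPM in SFD@M. Hoxb6 rose in both comparisons, by at least 42.4-fold over NC and at least 50.3-fold over Blank (quasi-likelihood adjusted p = 0.00215 and 3.06e-05). Hoxb7, at least 17.6-fold above NC, did not pass the count filter there, and was called against Blank (at least 19.2-fold, quasi-likelihood adjusted p = 0.000619). Hoxb8 had 14 counts in OTUB1_KD and 13 in SFD@M over 3 libraries, and Hoxb9 had 1 and 0. All these genes passed the count filter only through OTUB1_KD or SFD@M, where they were high, so their number among the calls supports nothing.

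In Hoxa the direction turned between Hoxa5 and Hoxa6. Hoxa5, the lung gene named above, had 15.4, 32.3 and 27.1 CPM in OTUB1_KD against 6.1, 4.46 and 6.05 CPM in NC. In SFD@M it had 49.1, 46.5 and 33.7 CPM against 8.89, 8.29 and 9.33 CPM in Blank. Neither pair of groups overlapped, and Hoxa5 rose by 2.10 ± 0.32 on the log2 scale in OTUB1_KD and by 2.25 ± 0.15 in SFD@M (quasi-likelihood adjusted p = 0.00124 and 3.47e-06). Unlike the Hoxb genes it was present in every control library.

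Hoxa4 had 3.72, 6.71 and 5.49 CPM in OTUB1_KD against 0.249, 0.654 and 0.652 CPM in NC, and 4.87, 5.77 and 5.01 CPM in SFD@M against 0.523, 0.696 and 0.525 CPM in Blank. It rose by 3.27 ± 0.46 in OTUB1_KD and by 3.11 ± 0.23 in SFD@M (quasi-likelihood adjusted p = 0.000926 and 5.76e-06), with no overlap. Hoxa2, the selector gene of the second pharyngeal arch, had 4.52, 8.79 and 3.83 CPM in OTUB1_KD against 2.37, 2.79 and 1.84 CPM in NC. SFD@M libraries had 7.22, 5.94 and 6.65 CPM of Hoxa2 against 2.03, 2.15 and 2.04 CPM in Blank. It rose by 1.22 ± 0.39 and by 1.63 ± 0.17 (quasi-likelihood adjusted p = 0.0299 and 3.41e-05). The call of Hoxa2 against NC did not hold in 4 of 16 alternative settings, with adjusted p up to 0.111.

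Hoxa3, a gene of thymus and parathyroid formation, passed the test in neither comparison. It had 12.6, 19.0 and 9.6 CPM in OTUB1_KD against 13.8, 15.1 and 16.5 CPM in NC, and 21.1, 17.4 and 16.1 CPM in SFD@M against 15.1, 14.7 and 14.1 CPM in Blank. The first pair overlapped fully and SFD@M lay just above Blank, with log2 fold changes of −0.22 ± 0.26 and 0.28 ± 0.12 that missed the threshold (quasi-likelihood adjusted p = 0.489 and 0.0529). The second passed in 6 of 16 alternative settings.

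From Hoxa6 upward all tested Hoxa genes fell. Hoxa6 had 2.23, 1.1 and 1.05 CPM in OTUB1_KD against 5.48, 6.24 and 4.27 CPM in NC, and 1.59, 1.65 and 0.824 CPM in SFD@M against 9.36, 8.87 and 8.57 CPM in Blank. Hoxa7 had 4.29, 1.5 and 1.94 CPM in OTUB1_KD against 10.6, 9.39 and 10.1 CPM in NC, and 2.82, 1.41 and 1.12 CPM in SFD@M against 19.8, 17.97 and 16.8 CPM in Blank. The groups did not overlap for either gene. Hoxa6 fell by 1.93 ± 0.39 and by 2.75 ± 0.25, and Hoxa7 by 2.03 ± 0.42 and by 3.39 ± 0.29 (quasi-likelihood adjusted p = 0.00457, 1.59e-05, 0.00483 and 1.22e-05).

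Hoxa9, a partner of Meis1 in mouse leukaemia, had 15.8, 0 and 3.05 CPM in OTUB1_KD against 70.7, 70.3 and 71.7 CPM in NC. Replicate 2 had no count and replicate 1 was highest, yet all lay under NC (−3.56 ± 1.19, quasi-likelihood adjusted p = 0.0338). In SFD@M it had 4, 0 and 0 counts against 72.6, 74.0 and 64.7 CPM in Blank. That left 0.00111 of the Blank level (95% counting interval 0.000303 to 0.00285; quasi-likelihood adjusted p = 9.67e-08).

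Hoxa10, required in the mouse uterus for implantation, had 10.3, 0 and 1.66 CPM in OTUB1_KD against 61.9, 63.0 and 64.2 CPM in NC (−4.05 ± 1.16, quasi-likelihood adjusted p = 0.0188). SFD@M libraries had 4, 0 and 2 counts against 66.5, 69.9 and 66.9 CPM in Blank, or 0.00174 of that level (95% counting interval 0.000637 to 0.00378; quasi-likelihood adjusted p = 3.49e-08). Hoxa9 and Hoxa10 shared the order of the OTUB1_KD libraries. Their calls against NC were less firm than those against Blank: Hoxa9 kept its call in 10 of 16 alternative settings and lost it without OTUB1_KD replicate 3, without any one NC library, with the DESeq2 test and with a replicate block (adjusted p up to 0.114). Hoxa10 kept its in 14 of 16 and lost it without OTUB1_KD replicate 3 and with the block.

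Hoxa13, a gene of digits and the genital tubercle, was lower than 1 CPM everywhere. It had 3, 0 and 2 counts in OTUB1_KD against 14, 16 and 15 in NC, and fell by 3.22 ± 0.66 (quasi-likelihood adjusted p = 0.00476). In SFD@M it had 0 counts against 6, 7 and 7 in Blank, at least 6.59-fold lower, and did not pass the count filter. Hoxa11 had 5 counts in OTUB1_KD against 19 in NC, and 0 in SFD@M against 25 in Blank.

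Hoxd genes were the other large part of the NC and Blank code. Hoxd8 had 32.9, 0.983 and 6.1 CPM in OTUB1_KD against 72.2, 69.7 and 69.6 CPM in NC. The OTUB1_KD values lay wholly under NC but were spread so widely that the gene missed the threshold (−2.47 ± 1.00, quasi-likelihood adjusted p = 0.0631). In SFD@M it had 1.41, 0.53 and 0.412 CPM against 67.5, 74.1 and 73.5 CPM in Blank and fell by 6.54 ± 0.25 (quasi-likelihood adjusted p = 1.83e-07).

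Hoxd9 and Hoxd10, genes of limb and lumbar patterning, followed it. Hoxd9 had 11.3, 0.405 and 4.22 CPM in OTUB1_KD against 16.3, 20.4 and 17.96 CPM in NC, and 0.294, 0.353 and 0.236 CPM in SFD@M against 26.96, 25.1 and 27.98 CPM in Blank. Hoxd10 had 11.4, 0 and 2.94 CPM in OTUB1_KD against 33.2, 32.1 and 31.5 CPM in NC, and 0.235, 0.0588 and 0 CPM in SFD@M against 31.3, 32.2 and 28.2 CPM in Blank. Each control range lay wholly above its partner. Against Blank they fell by 6.51 ± 0.16 and 8.22 ± 0.34 (quasi-likelihood adjusted p = 2.23e-08 and 2.15e-07), and against NC the values were −1.85 ± 0.87 and −2.82 ± 1.11, which missed the threshold (adjusted p = 0.0984 and 0.0585). Those of Hoxd8, Hoxd9 and Hoxd10 against NC passed in 6, 7 and 6 of 16 alternative settings, among them all 3 without OTUB1_KD replicate 1 (−4.37, −3.03 and −4.5).

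Hoxd3 and Hoxd4, which shape the first neck vertebrae, behaved differently within OTUB1_KD. Hoxd3 had 4.92, 0.0578 and 2.22 CPM in OTUB1_KD against 3.55, 4.1 and 3.73 CPM in NC, and Hoxd4 had 9.66, 0.462 and 3.55 CPM against 6.16, 8.5 and 7.88 CPM. OTUB1_KD replicate 1 thus lay above every NC library for both genes and replicates 2 and 3 below. Against NC the changes were −0.72 ± 0.95 and −0.78 ± 0.83 (quasi-likelihood adjusted p = 0.523 and 0.429), and neither passed in any of 16 alternative settings.

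In SFD@M both genes fell. Hoxd3 had 0, 2 and 1 counts there against 8.89, 6.78 and 7.99 CPM in Blank, or 0.00746 of the Blank level (95% counting interval 0.00153 to 0.0219). Hoxd4 had 0.47, 0.177 and 0.236 CPM against 13.8, 13.5 and 12.9 CPM. Neither gene overlapped Blank (quasi-likelihood adjusted p = 1.75e-06 for Hoxd3 and 3.88e-07 for Hoxd4, whose log2 fold change was −5.51 ± 0.25). Hoxd11 was lower in both comparisons: 0.629, 0 and 0.111 CPM in OTUB1_KD against 1.25, 1.49 and 1.66 CPM in NC (−2.60 ± 0.86, adjusted p = 0.0319), and 0 counts in SFD@M against 23, 11 and 18 in Blank, at least 17.1-fold lower (adjusted p = 0.000605). The call of Hoxd11 against NC held in 12 of 16 alternative settings.

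The Hoxc cluster was low in all groups. Hoxc6 had 2.23, 0 and 0.499 CPM in OTUB1_KD against 3.86, 2.85 and 3.62 CPM in NC (−1.98 ± 0.99, quasi-likelihood adjusted p = 0.117), and 4, 0 and 1 counts in SFD@M against 8.37, 6.9 and 6.7 CPM in Blank (−6.16 ± 0.48, adjusted p = 7.67e-06). Neither pair overlapped. Hoxc4 had 0.915, 0.462 and 1.11 CPM in OTUB1_KD against 0.996, 0.891 and 1.48 CPM in NC, which overlapped (−0.49 ± 0.44, quasi-likelihood adjusted p = 0.347), and 0.646, 0.235 and 0.648 CPM in SFD@M against 1.34, 1.57 and 0.933 CPM in Blank, which did not (−1.35 ± 0.41, adjusted p = 0.0149). Over the group, Hoxc5 had 13 counts in OTUB1_KD against 9 in NC, and 6 in SFD@M against 32 in Blank. Of the remaining low members, Hoxb1, Hoxb9, Hoxb13, Hoxc8, Hoxc9, Hoxc10, Hoxd1, Hoxd12 and Hoxd13 had at most 6 counts over any group. The highest of these was Hoxd12 in NC.

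**Figure D3:**
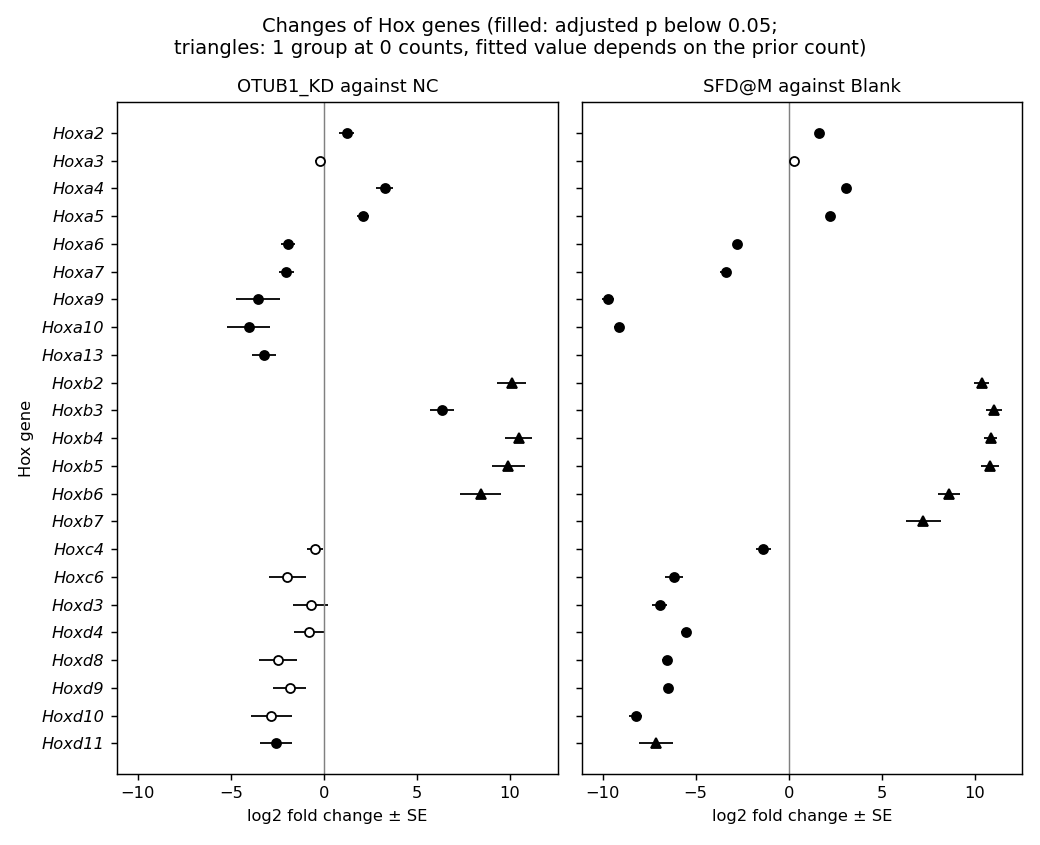
Points give the fitted log2 fold change of each tested Hox gene with its SE, for OTUB1_KD against NC and SFD@M against Blank, and filled symbols passed an adjusted p of 0.05. Triangles mark genes with 0 counts in 1 group, whose fitted values are no bound. Hoxa2, Hoxa4, Hoxa5 and the Hoxb genes lie to the right in both panels, and error bars are wider against NC.

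Counted over the cluster, 23 of 36 members could be tested in OTUB1_KD against NC, and 8 rose and 7 fell. That is 34.8% and 30.4% of those tested, beside 39.9% and 25.8% of all 14785 genes tested, so neither share stood far from the background. In SFD@M against Blank 23 members were tested, 9 rose and 13 fell, or 39.1% and 56.5%, beside 49.5% and 38.7% of all 14824 genes. Hoxa3 alone was not called in SFD@M. Hoxa9, Hoxa10, Hoxc6, Hoxd3, Hoxd10 and Hoxd11 had 4, 6, 5, 3, 5 and 0 counts in that group. They passed the count filter only through Blank, where they were high, and the Hoxb genes only through SFD@M. Against NC, Hoxa9 and Hoxa10, with 0 counts in OTUB1_KD replicate 2, passed it only through NC. The numbers of rises and falls therefore support nothing about the members as a set. The count of falls against NC depended on the settings, from 4 without OTUB1_KD replicate 3 or without any NC library to 11 without OTUB1_KD replicate 1.

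Within OTUB1_KD most Hox genes of the NC code followed the libraries. Replicates 1, 2 and 3 held 36.9%, 0.184% and 7.08% of the NC level of the 4 Y-linked genes and 31.2%, 7.04% and 11.4% of that of 5 genes of dividing cells. Hoxa10 stood at 16.3%, 0% and 2.64% of its NC mean, Hoxa9 at 22.3%, 0% and 4.3%, and Hoxd10 at 35.3%, 0% and 9.11%. Hoxd8 stood at 46.7%, 1.39% and 8.65%, and Hoxd9 at 61.8%, 2.22% and 23.1%. All these kept the order of replicate 1 above 3 above 2, which is also the order of the Y-linked and dividing-cell sums. The same order held for Hoxd3, at 129.6%, 1.52% and 58.5%, and Hoxd4, at 128.6%, 6.15% and 47.2%. Hoxa7, at 42.7%, 15.0% and 19.3%, and Hoxc6, at 64.8%, 0% and 14.5%, kept it too. Hoxa6, at 41.8%, 20.6% and 19.8%, did not, as replicate 2 lay just above replicate 3. Hoxd3, Hoxd4, Hoxd8 and Hoxd9 lay above the Y-linked percentage in all 3 libraries, and so did Hoxa3, Hoxa5, Hoxa6 and Hoxa7. Hoxa9, Hoxa10 and Hoxd10 did not.

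Ratios within a library, which need no control level, differed likewise. Hoxd4 over Hoxa10 in TPM was 0.816 in OTUB1_KD replicate 1 and 1.99 in replicate 3, against 0.0881 to 0.119 in NC and 0.169 to 0.183 in Blank. Hoxd8 over Hoxa10 was 4.17 and 5.08 in those libraries, against 1.42 to 1.53 in NC and 1.32 to 1.44 in Blank. Hoxd10 over Hoxa10 was 1.39 and 2.36, against 0.616 to 0.687 in NC and 0.532 to 0.595 in Blank. A Hoxa gene did likewise, as Hoxa9 over Hoxa10 was 1.06 and 1.34, against 0.77 to 0.794 in NC and 0.672 to 0.759 in Blank. In replicate 3 these ratios rest on 30 counts of Hoxa10. Hoxa10 had 0 counts in OTUB1_KD replicate 2, so it gave no ratio. The part of other cells in these ratios was not tested. In SFD@M libraries, Hoxd3 stood at 0% to 1.49% and Hoxd4 at 1.32% to 3.5% of their Blank means, beside 0.0475% to 0.442% for the Y-linked sum.

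**Figure D4:**
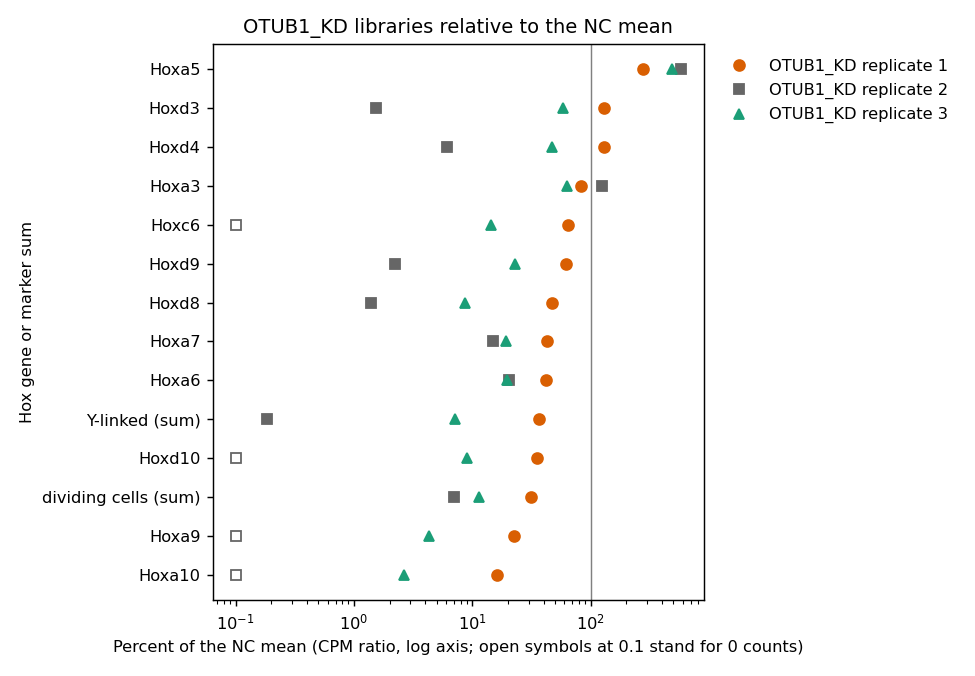
Each symbol is an OTUB1_KD library, placed at its CPM as a percent of the NC mean on a log axis, for Hox genes at 3 CPM or more in the NC mean and for the sums of Y-linked and dividing-cell genes, with open symbols at 0.1 for 0 counts. Replicate 2 lies far left for Hoxa9, Hoxa10 and the Hoxd genes but not for Hoxa3 or Hoxa5, and Hoxd3 and Hoxd4 lie near 100% in replicate 1.

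The controls of the experiments differed in some members while sharing the code. In Blank against NC 18 members were tested, and 9 were higher and 1 lower, or 50% and 5.56%, beside 37.0% and 37.2% of all 12087 genes. Among those higher were Hoxc6 (1.09 ± 0.13), Hoxd3 (1.05 ± 0.13), Hoxa7 (0.86 ± 0.08), Hoxd4 (0.83 ± 0.10), Hoxa6 (0.74 ± 0.12), Hoxa5 (0.67 ± 0.12), Hoxd9 (0.55 ± 0.07) and Hoxa10 (0.10 ± 0.04), with quasi-likelihood adjusted p of 4.62e-15 to 0.0172. Hoxa13 was lower (−1.21 ± 0.36, quasi-likelihood adjusted p = 0.00215). Hoxd8, Hoxd10 and Hoxa9 showed changes of 0.02 ± 0.04, −0.08 ± 0.06 and −0.01 ± 0.04 that did not pass (adjusted p = 0.603, 0.207 and 0.808).

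These differences rest on libraries that lie very close within each group. In Hoxa7, Blank libraries had 19.8, 17.97 and 16.8 CPM against 10.6, 9.39 and 10.1 CPM in NC, without overlap. With all 12 libraries in a single fit, which takes its spread from the more variable groups as well, 0 members were called. Hoxa10 lost its call in 4 of 16 alternative settings. Blank and NC also belong to separate experiments, so virus, saline and experiment cannot be told apart here, and these groups also serve as controls in the comparisons above.

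**Figure D5:**
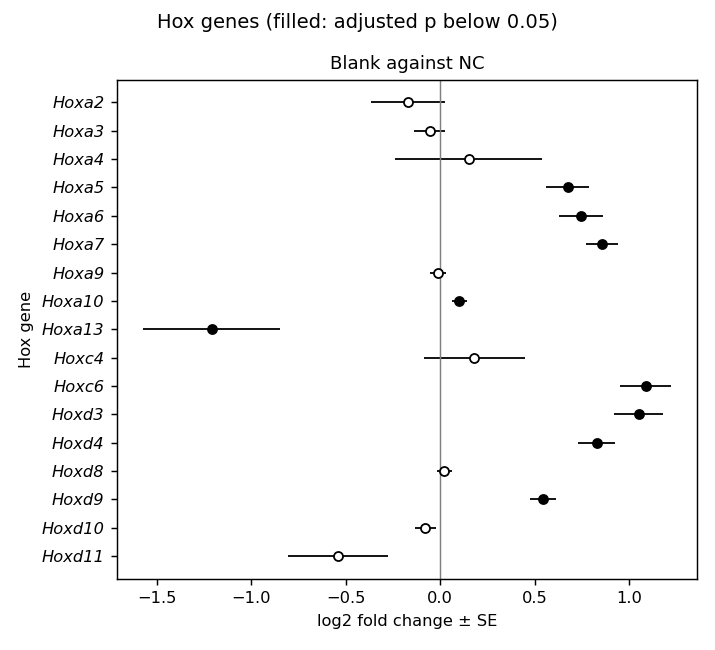
Points give the fitted log2 fold change of Hox genes in Blank against NC with its SE, filled where the adjusted p was below 0.05. Values run from −1.21 for Hoxa13 to 1.09 for Hoxc6, and the most abundant genes, Hoxd8, Hoxa9, Hoxa10 and Hoxd10, lie near 0.

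Between SFD@M and OTUB1_KD, 15 members were tested with edgeR and 0 were called, 3 of them having an unadjusted p under 0.05. The background there was 0.0134% higher and 0.0% lower of 14914 genes, with 2966 at an unadjusted p under 0.05, and DESeq2 called 475 genes higher and 897 lower, 1 of them a Hox gene. Of the tested members Hoxd8 had the largest change, with 1.41, 0.53 and 0.412 CPM in SFD@M against 32.9, 0.983 and 6.1 CPM in OTUB1_KD (−4.08 ± 1.19, quasi-likelihood adjusted p = 0.137), where replicate 2 of OTUB1_KD overlapped SFD@M. Members that did not pass the count filter had lower ratios of SFD@M to OTUB1_KD counts than the 0.0589 of Hoxd8, with 0.0125 for Hoxa9, 0.0205 for Hoxd10, 0.0245 for Hoxd3, 0.0296 for Hoxa10 and 0.0555 for Hoxd9. Hoxb5 and Hoxa5 had values of 0.91 ± 0.34 and 0.80 ± 0.29 (adjusted p = 0.202 and 0.193). Without OTUB1_KD replicate 2, 7 members were called lower in SFD@M.

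Whether both experiments moved a gene alike was tested directly, by the change in OTUB1_KD against NC minus that in SFD@M against Blank, in 24 members. It was called positive, meaning a less negative change in OTUB1_KD, for 7 of them: Hoxd3 (6.19 ± 1.44), Hoxa9 (6.14 ± 1.87), Hoxd10 (5.38 ± 1.68), Hoxa10 (5.05 ± 1.66), Hoxd4 (4.71 ± 1.10), Hoxd9 (4.64 ± 1.13) and Hoxd8 (4.06 ± 1.26), with quasi-likelihood adjusted p of 0.013 to 0.0483. That is 29.2% of those tested, beside 10.8% of 15304 genes. For Hoxb3 it was negative (−4.74 ± 1.48, adjusted p = 0.0466), or 4.17% of members beside 12.4% of genes, a value that rests on 6 counts in NC against 0 in Blank. Hoxd4 passed in all 21 alternative settings, Hoxd3 in 20 and Hoxd9 in 19, whereas Hoxa9, Hoxa10, Hoxd8, Hoxd10 and Hoxb3 passed in 4 to 7. Hoxb2 and Hoxb4 to Hoxb7, at 0 in both controls, had SEs above 100 in this fit and give no estimate of a difference.

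Partners of HOX proteins moved in both directions. Of 11 cofactor genes, 4 rose and 1 fell in OTUB1_KD (median log2 fold change 0.26, against 0.16 over all genes tested). In SFD@M 6 rose and 4 fell (0.40, against 0.23). Over all genes tested, 39.9% rose and 25.8% fell in OTUB1_KD, and 49.5% rose and 38.7% fell in SFD@M. Meis1 had 31.3, 51.4 and 56.3 CPM in OTUB1_KD against 15.4, 14.2 and 15.3 CPM in NC (1.56 ± 0.24, quasi-likelihood adjusted p = 0.00147), and rose by 2.12 ± 0.12 in SFD@M. Pknox2 rose by 2.95 ± 0.32 and 4.66 ± 0.34, and Tgif1, a repressor of the same homeodomain class, fell in SFD@M (−1.55 ± 0.07; −1.01 ± 0.39 in OTUB1_KD, adjusted p = 0.0527).

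Chromatin regulators of the clusters were counted beside all genes tested, of which 25.8% fell in OTUB1_KD and 38.7% in SFD@M; the difference from these shares was not tested. Of 34 Polycomb genes 4 rose and 21 fell in OTUB1_KD (median −0.68), and 7 rose and 25 fell in SFD@M (median −0.86). Ezh2, the methyltransferase that marks silent Hox clusters, fell by 1.44 ± 0.25 and 2.88 ± 0.06, and Rbbp7 and Pcgf6 fell in both. Scmh1, a Polycomb gene, rose by 5.10 ± 0.42 and 6.01 ± 0.15, with 40.01 ± 14.7 CPM in OTUB1_KD against 1.10 ± 0.42 CPM in NC. Of 22 Trithorax and activator genes 3 rose and 12 fell in OTUB1_KD (median −0.51), and 4 rose and 16 fell in SFD@M (median −0.50). Psip1, which ties the MLL complex to chromatin, fell by 1.72 ± 0.45 and 2.34 ± 0.05, and Ash2l, Mllt1 and Mllt3 fell in both. The dividing-cell sum was 181 to 802 CPM in OTUB1_KD against 2516 to 2608 CPM in NC. In SFD@M that sum was 24.2 to 85.5 CPM against 2589 to 2656 CPM in Blank. The part of dividing cells in these changes was not tested.

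Retinoic acid genes moved in both directions. Of 17 tested, 9 rose and 2 fell in OTUB1_KD (median 2.503), and 10 rose and 7 fell in SFD@M (median 0.97). Of all genes tested, 39.9% rose and 25.8% fell in OTUB1_KD, and 49.5% rose and 38.7% fell in SFD@M. Aldh1a2, which makes retinoic acid in the embryo, had 99.9, 128 and 110.05 CPM in OTUB1_KD and 81.1, 69.7 and 75.4 CPM in SFD@M, against 0 counts in NC and Blank. Aldh1a1 and Dhrs3 rose in both. Among 19 tested transcription factor genes of mesenchyme, 10 rose and 5 fell in OTUB1_KD (median 1.96), and 11 rose and 7 fell in SFD@M (median 1.76). Foxf1, a lung mesenchyme factor, rose by 3.67 ± 0.50 and 4.70 ± 0.11 and Tbx2 by 7.40 ± 0.54 and 8.33 ± 0.22. Prrx1, a limb and body wall mesenchyme factor, fell by 3.02 ± 0.56 and 4.62 ± 0.06, with 99.1, 26.7 and 26.5 CPM in OTUB1_KD against 389 to 395 CPM in NC, and Gli3 fell too (−2.69 ± 0.63 and −4.54 ± 0.06). All of these have quasi-likelihood adjusted p of 4.28e-09 to 0.00843.

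Of the trunk and limb list 2 of 12 tested genes rose and 6 fell in OTUB1_KD (median −1.35). In SFD@M 3 of 11 rose and 5 fell (median −0.43). Beside this and the flanking genes below, 39.9% of all genes tested rose and 25.8% fell in OTUB1_KD. The shares in SFD@M were 49.5% and 38.7%, and the difference from them was not tested. Pax3, a gene of body wall muscle and neural crest, had 6.8, 0.0578 and 1.94 CPM in OTUB1_KD against 39.6, 45.04 and 40.2 CPM in NC. It fell by 3.89 ± 0.98 in OTUB1_KD (quasi-likelihood adjusted p = 0.0112), and SFD@M libraries had 0.0587, 0 and 0 CPM against 31.3 to 31.5 CPM in Blank (adjusted p = 3.37e-08). Gdf11, a signal that shifts Hox codes tailward in the mouse, fell by 2.36 ± 0.22 and 3.06 ± 0.13. Fgf10 and Shh, signals of lung branching as well as of the limb, rose in both (quasi-likelihood adjusted p of 8.57e-08 to 0.000947). Genes that flank the clusters moved in both directions as well, 5 higher and 12 lower of 23 in OTUB1_KD and 8 higher and 12 lower in SFD@M, with Cbx5 and Hnrnpa1 next to Hoxc lower and Calcoco1 and Ttll6 higher in both. Of 8 measured ParaHox and caudal genes Gbx2 could be tested, with −1.05 ± 0.87 in OTUB1_KD (adjusted p = 0.314) and a fall of 4.70 ± 0.54 in SFD@M. The 25 listed non-coding and antisense genes of the clusters were not analysed here.

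Several members share genomic space. In the RefSeq annotation of GRCm38.p6, used only for which genes neighbour each other, 6 pairs among 10 members overlap: Hoxd10 with Hoxd11, Hoxd3 with Hoxd4, Hoxa3 with Hoxa4, Hoxa5 and Hoxa6, and Hoxb3 with Hoxb4. Non-coding genes such as Hoxaas3 at Hoxa3, Hoxa5 and Hoxa6, and Hoxb5os at Hoxb5 and Hoxb6 overlap others. The sources do not state how strand was handled, and counts of these members are uncertain to the extent that reads were shared.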

How the data were processed

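The authors' deposited table gives expected counts and TPM for 70659 transcripts in 12 libraries, made with Bowtie2 and RSEM 1.3.1 on GRCm39, per the submitters' processing notes. Expected counts from RSEM were deposited without scaling, and the deposited TPM values are per length and per library. Strand handling is not given in the sources used here. The notes also name DESeq2 1.4.5. Another 24 per-sample columns, and 16 columns of means, were not used. Expected counts were summed over the transcripts of each of 19212 gene IDs and rounded; 57 IDs without a symbol held at most 0.342% of a library.

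Levels are CPM of the library total, and levels of different genes are set side by side in TPM only. Each comparison was fitted by itself with edgeR 4.0.16 (R 4.3.3, filterByExpr, TMM, robust quasi-likelihood), with Benjamini-Hochberg adjustment over all genes tested and a threshold of 0.05. The fit was tried on data simulated with a common dispersion for OTUB1_KD against NC, SFD@M against Blank and Blank against NC. It was not tried so for SFD@M against OTUB1_KD or for the difference between the experiments. The difference between the experiments was fitted over all 12 libraries. The SE given with edgeR values is the absolute log2 fold change divided by the square root of the quasi-likelihood F statistic. It is thus derived from the test and grows without limit as F nears 0. limma 3.58.1, DESeq2 1.42.0, other scalings and filters, TPM and fits without each library were alternatives. Genes with 0 counts in a group get a bound against 3 counts over the group. Members at 1 CPM or more in a group mean are described, and a few results are not reported here. The members and gene lists were chosen with earlier results of these data known.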

Additional observations from a re-analysis of the deposited data

Results flagged for a closer look

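For 8 Hox genes the change in OTUB1_KD against NC differed from that in SFD@M against Blank by a test of the difference itself (edgeR quasi-likelihood, first change minus second, log2 scale). The differences were 6.19 for Hoxd3, 6.14 for Hoxa9, 5.38 for Hoxd10, 5.05 for Hoxa10, 4.71 for Hoxd4, 4.64 for Hoxd9 and 4.06 for Hoxd8, with adjusted p of 0.013 for Hoxd3 and Hoxd4, 0.0154 for Hoxd9, 0.0371 for Hoxa9, 0.0393 for Hoxd8, 0.0407 for Hoxd10 and 0.0483 for Hoxa10. The change was less negative in OTUB1_KD for each of these 7 genes, of which Hoxa9 and Hoxa10 passed the test against NC, and their OTUB1_KD libraries were spread widely, with replicate 1 highest. For Hoxb3 the difference was −4.74 (adjusted p = 0.0466), and it rests on 6 counts in NC against 0 in Blank.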

How the results depend on the processing

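In OTUB1_KD against NC, 7 Hox genes fell in the reported fit and 11 with limma-voom, with log2(TPM + 1), with log2(TPM + 0.1) and with all 12 libraries in one fit. Leaving out a library gave 4 to 11 falls, with 11 without OTUB1_KD replicate 1 and 4 without OTUB1_KD replicate 3 or any NC library, and 7 to 9 rises. In SFD@M against Blank it gave 9 to 10 rises and 13 falls. In Blank against NC, 9 higher calls became 0 with all 12 libraries, and 8 to 9 without a library. The 1 lower call became 3 with no filter, 0 with a filter of 1 CPM, 0 with all 12 libraries, and 1 to 2 without a library, 2 being reached without NC replicate 1 or Blank replicate 1. Between SFD@M and OTUB1_KD, 1 gene was higher and 7 lower with all 12 libraries, 1 was lower with the DESeq2 test, and 0 to 7 were lower without a library, 7 of them without OTUB1_KD replicate 2; 0 were higher there. Calls of the difference between the experiments went from 8 to 1 with limma-voom, to 4 with log2(TPM + 0.1), and to 3 to 13 without a library, 13 without OTUB1_KD replicate 2. The cause of these shifts was not tested. Same-numbered libraries did not deviate together (correlations 0.049, −0.006 and 0.079 for OTUB1_KD with NC, 0.007, −0.008 and 0.011 for SFD@M with Blank). Whether the numbers pair samples is not stated, and these correlations, from 3 libraries per group, cannot decide it. A replicate block gave 8 rises and 5 falls in OTUB1_KD, 10 and 13 in SFD@M, 9 and 1 in Blank against NC, 0 and 0 in SFD@M against OTUB1_KD, and 3 calls of the difference. Signs turned only in changes that had missed the threshold: Hoxc4 in OTUB1_KD (0.0224 and 0.0668 with the TPM scales), and, in Blank against NC, Hoxa3 (0.0606 and 0.0689 with TPM, −0.116 to 0.0112 without a library), Hoxa4 (−0.167 to 0.343 without a library), Hoxa9 (0.0121 with no filter, 0.0368 and 0.0377 with TPM, −0.0447 to 0.051 without a library) and Hoxd8 (−0.0271 with all 12 libraries). Depth limits genes at 0 to the bound of 3 counts over a group.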
